A study of Danio rerio with 6 samples.

Results

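Muscle contraction genes were read from whole zebrafish embryos on Affymetrix arrays, as 20 probe sets of 19 genes among the 2150 genes that the authors' 3 deposited comparison tables name alone. A probe set was taken when its gene's current symbol belongs to the families of troponins, tropomyosins, myosins and their light chains and binding proteins, titin, nebulin, muscle actins, actinins, muscle and mitochondrial creatine kinases, calcium stores and pumps, parvalbumins or Smyd proteins, or is nppa, with pvalb8 left out. Entry into those tables took a 2-fold difference between groups, so the differences below chose the genes and are given as a description. All 20 probe sets stand in the table of ERbeta2 MO over uninjected embryos, 17 of them also in that of ERbeta2 MO over coMO, and 0 in that of uninjected over coMO. Muscle genes that did not reach the tables carry no name here and were not analysed.

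A striated muscle shortens when myosin heads of the thick filament pull on actin of the thin filament within the sarcomere. Calcium released from the sarcoplasmic reticulum binds troponin, which moves tropomyosin off the actin, and a calcium pump and buffers such as parvalbumin then end the contraction. Titin spans the sarcomere from Z disc to M line, and mitochondrial creatine kinase passes on the energy of ATP. Zebrafish embryos build separate fast and slow fibres in the trunk early on, with isoforms of their own, beside heart and smooth muscle.

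Eggs pooled from several aquaria were injected up to the 4-cell stage and raised to 72 h after fertilization, per the labels. ERbeta2 MO embryos received 50 uM of a morpholino, a synthetic antisense oligonucleotide, that blocks translation of the estrogen receptor ERbeta2, and coMO embryos received a standard control morpholino at the same 50 uM. Uninjected embryos received none, and no strain is given in the sources used here. Each group has 2 arrays, titled biological replicates, with no word on separate spawnings, so the errors measure the spread between these samples, which may be technical. In whole embryos, fewer muscle cells and less RNA per muscle cell cannot be told apart.

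Over all probe sets, which are not independent of each other, the 2 arrays of a group had a Pearson's r of 0.975 to 0.987, and coMO arrays correlated with uninjected arrays at 0.971 to 0.979. ERbeta2 MO arrays correlated with both kinds of control at 0.9 to 0.908. A median signal of 198 to 228 was found on the 6 arrays. Differences below are in log2(signal + 16) with their standard error (SE) from a limma fit over 9302 probe sets. The scale understates changes of low signals.

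Between ERbeta2 MO and coMO embryos the muscle genes named here differed in both directions, as did all probe sets tested. Titin, the myogenic factor myogenin, a myosin binding protein and the heart hormone nppa were higher with the ERbeta2 morpholino. Actin of smooth muscle, tropomyosin 1, fast troponin I, mitochondrial creatine kinases and parvalbumins were lower, of which pvalb5 changed sign when arrays were scaled on the poly-A spikes. The differences ran from a log2 of -3.99 for ckmt2a to 2.08 for nppa. Of the 18 probe sets bright enough to be tested, 5 were higher and 13 lower at an adjusted p of 0.05. Their median log2 was -1.12, beside 0.05 over all 9302. Of the lower ones 8, and of the higher ones 0, stood on none of the lists of skeletal or heart muscle genes given below. The median log2 of those 8 was -1.66. Of all probe sets tested 29.5% were higher and 26.8% lower at that threshold, and 56.2% passed in all. Since the tables chose these genes for this contrast, nothing is read from the count. The arrays of the ERbeta2 MO group did not overlap with the coMO arrays for any of the 20 probe sets, which also held for 78.7% of all probe sets tested.

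**Figure D1:**
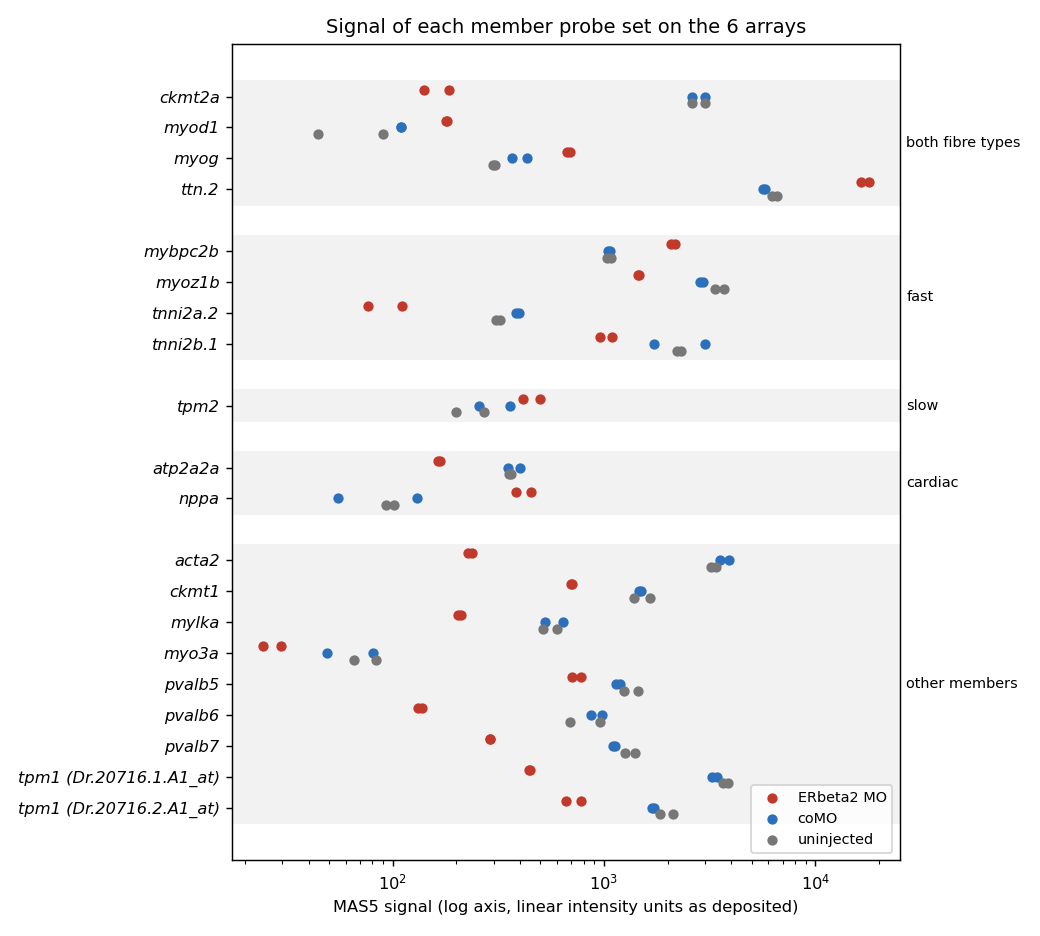
MAS5 signal (log axis) of the 20 member probe sets on the 6 arrays, 1 point per array, grouped by the fibre type a gene is known for. The 2 ERbeta2 MO arrays lie apart from the 4 control arrays in every row, to the right for ttn.2, mybpc2b, myod1, myog, tpm2 and nppa and to the left for the other rows.

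Genes of the thin filament went both ways. The smooth muscle actin acta2, the contractile actin of vessel and gut walls, had signals of 227 and 237 on the ERbeta2 MO arrays, 3530.2 and 3898 on the coMO arrays and 3399 and 3202 on the uninjected arrays. The control groups thus lay close together and far above both ERbeta2 MO arrays, and the difference from coMO was a log2 of -3.91 (SE 0.13), or 15.0-fold. Tropomyosin 1, tpm1, which winds along actin and covers its myosin sites, was read by a pair of probe sets. On the first of them the signals were 445 and 441 in ERbeta2 MO, 3414 and 3229.9 in coMO and 3642 and 3875 in uninjected embryos. On the second they were 781 and 662, 1723 and 1678, and 2123 and 1833 in the same order. Both were lower in ERbeta2 MO, but by unlike amounts, at a log2 of -2.86 (95% interval -3.13 to -2.60) and -1.22 (-1.51 to -0.93), so the size of the tpm1 difference depends on the probe set.

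The beta tropomyosin gene tpm2, listed with slow muscle, was higher in place of lower. Its signals were 411 and 499 in ERbeta2 MO, 358 and 256 in coMO and 269 and 198 in uninjected embryos. The lower ERbeta2 MO array stood just above the higher coMO array, and the difference from coMO was small, at a log2 of 0.55 (SE 0.20). It did not pass the threshold without the second coMO array (log2 0.32) or without the second ERbeta2 MO array (0.42). Against uninjected embryos it was 0.93 (SE 0.20).

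Troponin I is the subunit that holds the thin filament off until calcium arrives. Its fast muscle gene tnni2a.2 gave 75.9 and 110.3 in ERbeta2 MO, 394 and 381 in coMO and 307 and 322 in uninjected embryos, a log2 of -1.91 (SE 0.20) from coMO. A second fast gene, tnni2b.1, gave 1090.0 and 960.3, 2999 and 1726, and 2205 and 2312 in the same order. Here the coMO arrays lay far apart, with 1 on each side of the uninjected arrays, and the log2 of -1.14 (SE 0.18) became -0.75 without the first of them. In the RefSeq gene table of assembly GRCz12tu, tnni2a.2 lies in a row with tnni2a.1, tnni2a.3 and tnni2a.4, and tnni2b.1 next to tnni2b.2. Whether these probe sets also read the neighbouring copies was not tested.

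The gene of titin, ttn.2, the molecular spring of the sarcomere, was higher in ERbeta2 MO. It had signals of 16475 and 18016 in ERbeta2 MO, 5797 and 5638 in coMO and 6621 and 6250.2 in uninjected embryos. Both ERbeta2 MO arrays lay far above the 4 controls, 3.01-fold above coMO (log2 1.59, SE 0.12). A further pair of probe sets is described in the files as similar to titin but carries no current gene identifier, and was looked at after the values were seen. Of these LOC556025 gave 17179 and 16447 in ERbeta2 MO, 4328 and 4362 in coMO and 5599 and 5577 in uninjected embryos, a log2 of 1.95 (SE 0.11). The other, LOC555463, gave 16268 and 17544, 4848 and 5588, and 5485 and 7548 in the same order, a log2 of 1.70 (SE 0.14). In the GRCz12tu table ttn.2 lies next to ttn.1, and whether the 3 probe sets read 1 or both titin genes was not tested.

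Myosin binding protein C of the fast type, mybpc2b, which binds the thick filament, was 2.00-fold higher with signals of 2176 and 2084 in ERbeta2 MO, 1044 and 1070.2 in coMO and 1030.1 and 1083 in uninjected embryos. The 4 controls were nearly level, and the log2 was 1.00 (SE 0.13) from either. Myozenin, myoz1b, a Z disc protein known in mammals from fast fibres, was lower. It gave 1466 and 1449 in ERbeta2 MO, 2932 and 2844 in coMO and 3347 and 3695 in uninjected embryos, a log2 of -0.98 (SE 0.12) from coMO. In the deposited scaling mybpc2b and myoz1b thus differed in opposite directions. With the poly-A spikes myoz1b stood at -0.04 from coMO and did not pass the threshold.

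The other myosin genes taken in by symbol do not build sarcomeres. The light chain kinase mylka, whose enzyme starts contraction of smooth muscle and which the files describe as similar to a neuronal form, gave 211 and 203 in ERbeta2 MO, 639 and 527 in coMO and 597 and 515 in uninjected embryos (log2 -1.42, SE 0.17, from coMO). Its probe set is of a type that can match several transcripts. The gene myo3a, an unconventional myosin with a kinase domain known from photoreceptors and hair cells, gave 29.6 and 24.2, 80.6 and 48.8, and 65.2 and 83.4 in the same order. At these low signals it did not pass the filter. With no filter its log2 from coMO was -0.89 (SE 0.32), which passed the threshold.

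The 4 calcium handling genes among the members were lower in the deposited scaling, but with the poly-A spikes atp2a2a no longer passed the threshold (log2 -0.17) and pvalb5 changed sign (0.29). With the hybridization controls pvalb5 did not pass either (-0.19). The pump gene atp2a2a, whose product returns calcium to the sarcoplasmic reticulum in heart and slow muscle, gave 164 and 167 in ERbeta2 MO, 398 and 351 in coMO and 362 and 355 in uninjected embryos (log2 -1.10, SE 0.18, from coMO). The parvalbumin genes code for calcium buffers, and which cells of the fish use these copies is not given in the files. Of these pvalb6 showed the largest difference, with signals of 131 and 138 in ERbeta2 MO, 865 and 976 in coMO and 688 and 957 in uninjected embryos (log2 -2.64, SE 0.17). The paralog pvalb7 gave 289 and 288, 1105 and 1132, and 1262 and 1398 in the same order (log2 -1.90, SE 0.14). The paralog pvalb5 gave 705 and 777, 1142 and 1193, and 1239.5 and 1444 (log2 -0.65, SE 0.14), the smallest difference of the 13 that were lower. In the GRCz12tu table pvalb5 lies next to pvalb4 and pvalb1, while pvalb6 and pvalb7 have no parvalbumin among the 2 genes on either side.

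The creatine kinase genes, which serve energy supply, were lower by unlike amounts. The mitochondrial creatine kinase gene ckmt2a, in mammals the form of heart and skeletal muscle, gave 140.2 and 185 in ERbeta2 MO, 2610.3 and 3003 in coMO and 2605 and 3019 in uninjected embryos. The control groups were alike, and ERbeta2 MO was 15.9-fold below them (log2 -3.99, SE 0.15, against either). The form that mammals use in many tissues, ckmt1, gave 697 and 706 in ERbeta2 MO, 1458 and 1492 in coMO and 1389.6 and 1653 in uninjected embryos (log2 -1.06, SE 0.14, from coMO), and no longer passed the threshold with the poly-A spikes (-0.12). Both were lower on both ERbeta2 MO arrays than on any control array.

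Of the transcription factors that turn precursor cells into muscle, myogenin, myog, passed the threshold and was higher. This factor, which drives the step from myoblast to muscle fibre, gave 690.0 and 669.6 in ERbeta2 MO, 432 and 368 in coMO and 299 and 306 in uninjected embryos. The 3 groups did not overlap, and the log2 was 0.75 (SE 0.16) from coMO and 1.13 (SE 0.16) from uninjected embryos. The factor that sets the muscle lineage, myod1, had low signals of 178 and 181 in ERbeta2 MO, 109 and 109 in coMO and 90 and 44.1 in uninjected embryos, and did not pass the filter. With no filter its log2 from coMO was 0.65 (SE 0.28), which did not pass the threshold. From uninjected embryos it was 1.29 (SE 0.28), which did pass. Both contrasts chose these genes, so passing the threshold or not is a description here and no test.

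The cardiac hormone gene nppa, which codes for the natriuretic peptide of the atrium, was higher as well. Its signals were 381 and 452 in ERbeta2 MO, 55 and 129.6 in coMO and 92.7 and 101 in uninjected embryos. The coMO arrays differed more than 2-fold from each other, and both were below either ERbeta2 MO array. The log2 from coMO was 2.08 (SE 0.26), and 1.57 or 2.60 when 1 coMO array was left out. It passed the filter only through the ERbeta2 MO arrays, the 1 member of 18 that would fall below it on the control arrays alone. Without the first coMO array its log2 of 1.57 lay below that of ttn.2, at 1.61.

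By fibre type the members of the lists that could be named were few. The fast muscle list held 4 members of its 39 symbols, with 1 higher and 3 lower. The list of genes used by both fibre types held 4 of 23, with myog and ttn.2 higher, ckmt2a lower and myod1 below the filter. The slow muscle list held tpm2 alone, higher. The cardiac list held nppa, higher, and atp2a2a, lower, the gene of a pump used in slow muscle as well. The remaining 8 genes stood on none of these lists, and their 8 tested probe sets were lower. Of all probe sets tested 29.5% were higher and 26.8% lower against coMO. With the poly-A spikes myoz1b, tnni2b.1, atp2a2a, pvalb5, ckmt1, mylka and the second tpm1 probe set did not pass the threshold against coMO. The counts by list are small and selected, and they show no order between fibre types.

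Against uninjected embryos, a comparison that holds injection as well as the ERbeta2 morpholino and shares the ERbeta2 MO arrays, the same 5 probe sets were higher and the same 13 lower at the threshold. Of all probe sets 30.4% were higher and 26.5% lower. The contrast also chose the members. The differences ran from a log2 of -3.99 for ckmt2a to 1.94 (SE 0.26) for nppa, with acta2 at -3.74 (SE 0.13), tpm1 at -3.04 (SE 0.13) and -1.44 (SE 0.14), pvalb6 at -2.46 (SE 0.17), pvalb7 at -2.14 (SE 0.14), and ttn.2 at 1.42 (SE 0.12). With no filter myod1 stood at 1.29 (SE 0.28) and myo3a at -1.07 (SE 0.32), and both passed the threshold.

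**Figure D2:**
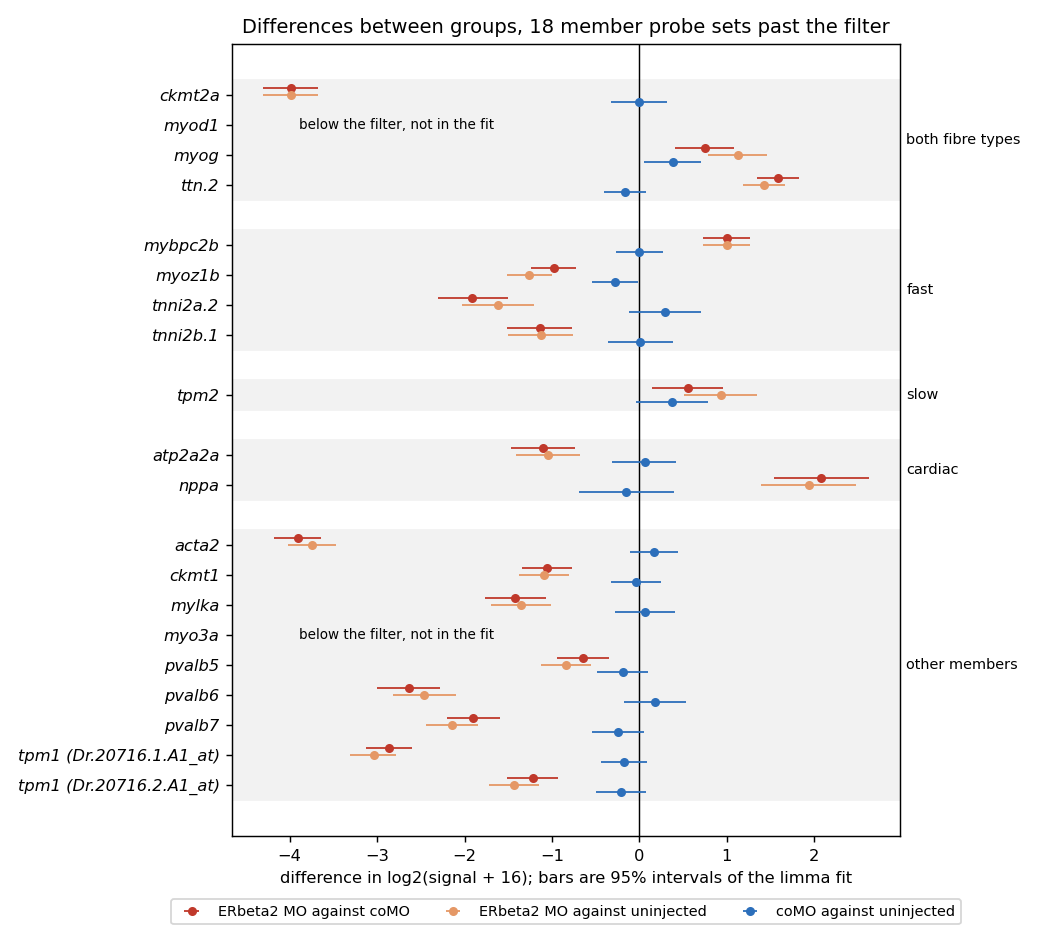
Difference in log2(signal + 16) for the 18 member probe sets past the filter, in the 3 comparisons, with the 95% interval of the limma fit. The intervals of both ERbeta2 MO comparisons exclude 0 in every row, from -3.99 for ckmt2a to 2.08 for nppa. Members were chosen for a difference in these comparisons, so those intervals are a description and no test. The differences of coMO from uninjected embryos lie between -0.28 and 0.38.

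The control morpholino was set against no injection. This contrast holds the injection and the control morpholino together, and they cannot be told apart here. No member entered through the deposited table of this contrast, so it was tested. All 20 entered through that of ERbeta2 MO over uninjected embryos, which shares the uninjected arrays. The test is thus not free of that choice. Of the 18 probe sets 0 passed an adjusted p of 0.05 in limma, where 0.505% of all probe sets did, and 2 of 18 had an unadjusted p below 0.05, beside 7.89% of all. These were myog (log2 0.38, 95% interval 0.05 to 0.71, adjusted p = 0.516) and myoz1b (-0.28, -0.54 to -0.02, adjusted p = 0.546). Of the others tpm2 lay at 0.37 (-0.04 to 0.78, limma adjusted p = 0.706), tnni2a.2 at 0.29 (-0.12 to 0.70, 0.802) and pvalb7 at -0.24 (-0.54 to 0.05, 0.749). No interval reached beyond 0.78 in either direction. The arrays of the groups did not overlap for 9 of the 18, and for 34.3% of all probe sets tested. The median distance from a value to the end of its interval was 0.31.

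Folds in the authors' deposited tables lay on the same side of 1 as the ratio of the mean signals for all 20 and 17 members listed. In the authors' deposited table of ERbeta2 MO over coMO the fold was farther from 1 than the ratio of means for 15 of 17. Over all 17, fold and ratio differed by a median factor of 1.19 in either direction. The widest gap was that of myod1, at 3.67 in the authors' deposited table and 1.65 as a ratio of means. No source used here says how the deposited fold was computed. Members nearest the 2-fold limit in the authors' deposited table were mybpc2b at 2.00 and myog at 2.03 above and myoz1b at 0.461 below. The table leaves out 3 members, tpm2, pvalb5 and myo3a, whose ratios of mean signals were 1.48, 0.635 and 0.416. By that ratio tpm2 and pvalb5 lay within 2-fold and myo3a beyond it.

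Among the probe sets that carry a name here, skeletal muscle actin itself was read only by the arrays' control probe sets, which carry no test. Over the middle of acta1 the signal was 31942 and 31959 in ERbeta2 MO, 47030 and 53803 in coMO and 47475 and 55054 in uninjected embryos, a ratio of means of 0.634 to coMO. Over the 3' part it was 49446 and 40662, 68683 and 81570, and 69933 and 90876, a ratio of 0.600. At the 5' part it was 3644 and 3508, 8996 and 14252, and 12934 and 9051, a ratio of 0.308. As deposited, the signal of this actin was thus lower on both ERbeta2 MO arrays at each part, and by most at the 5' part. These signals were not rescaled on the poly-A spikes, which would raise those of ERbeta2 MO. The mean log2 signal of the spikes was 6.88 and 6.61 in ERbeta2 MO against 7.52 and 7.83 in coMO. A member with a like ratio of means to coMO, pvalb5 at 0.635, changed sign with that scaling (log2 0.29). Whether the middle and the 3' part of acta1 would stay lower than in coMO there was not tested. The 3' to 5' ratio of acta1 was 13.6 and 11.6 in ERbeta2 MO against 5.41 to 10.04 on the control arrays, and that of GAPDH 2.14 and 2.15 against 1.34 to 1.66. That of the poly-A spike dap was 3.87 and 4.69 in ERbeta2 MO against 4.08 to 5.23 on the control arrays, and overlapped. The acta1 and GAPDH ratios, which reflect RNA integrity and labelling, thus moved with the group. Their part in the differences of the muscle genes was not tested.

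**Figure D3:**
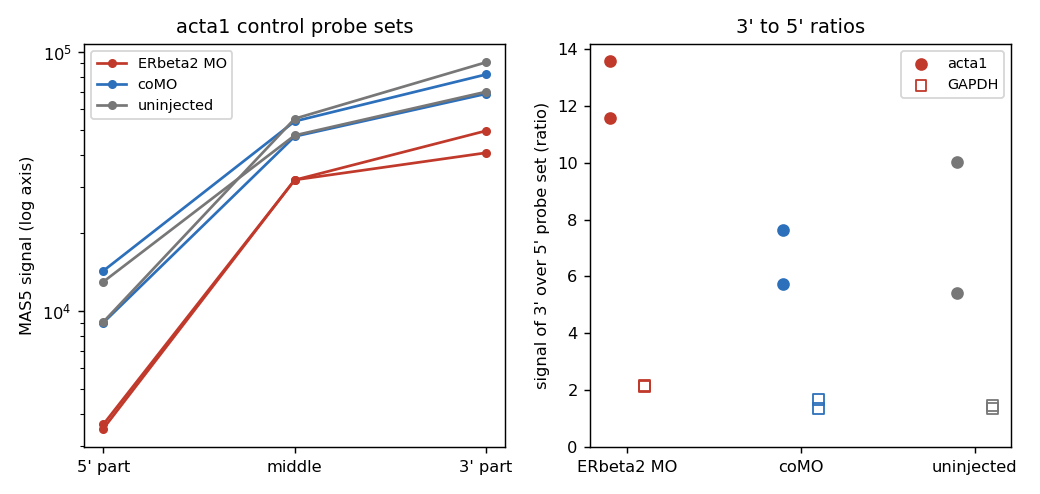
Left, MAS5 signal (log axis) of the control probe sets over the 5' part, the middle and the 3' part of acta1, 1 line per array. Right, ratio of the 3' to the 5' probe set for acta1 (filled circles) and GAPDH (open squares), 1 point per array, with ERbeta2 MO highest for both at 11.6 to 13.6 and 2.14 to 2.15.

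Scaling between arrays matters for the size of every difference. The spikes added to each sample were dimmer on the ERbeta2 MO arrays, and scaling on them raises all ERbeta2 MO signals. The median log2 difference from coMO over all probe sets, 0.05 as deposited, was 0.06 with quantile normalization, 0.21 with each array centred on its median, 0.50 with the hybridization controls and 0.98 with the poly-A spikes. With the poly-A spikes 5 members were higher and 6 lower at the threshold against coMO, and 5 and 9 against uninjected embryos. Of all probe sets 69.8% were then higher and 4.17% lower against coMO, and 53.3% and 6.25% against uninjected embryos. The 6 were ckmt2a (log2 -3.06), acta2 (-2.98), tpm1 on its first probe set (-1.93), pvalb6 (-1.70), tnni2a.2 (-0.97) and pvalb7 (-0.97). The remaining 7 of the 13 did not pass there, with pvalb5 at 0.29, myoz1b at -0.04, ckmt1 at -0.12, atp2a2a at -0.17, tnni2b.1 at -0.21, tpm1 on its second probe set at -0.29 and mylka at -0.49. The 5 higher members were higher under all 5 scalings. Median centring, the hybridization controls and the poly-A spikes raise every ERbeta2 MO signal relative to coMO, so higher members had to stay higher there. Of the alternatives only quantile normalization could have lowered them.

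**Figure D4:**
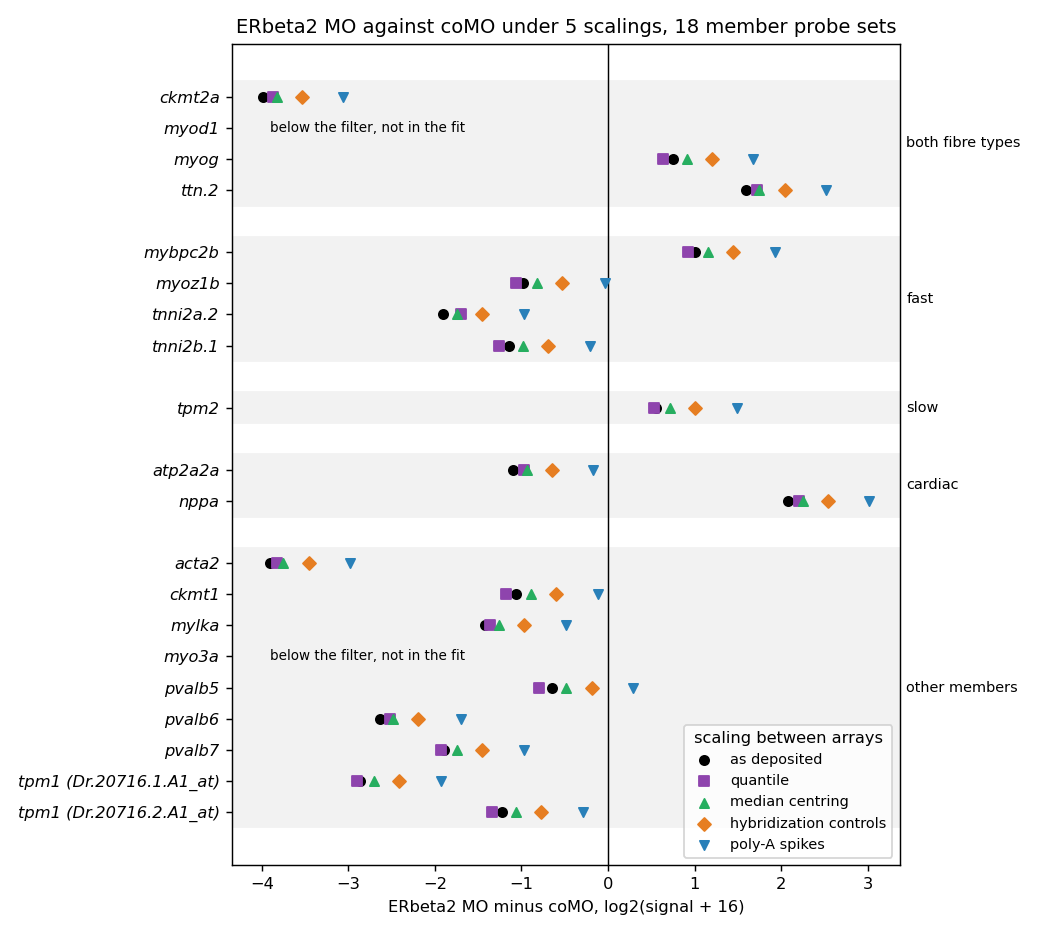
Difference of ERbeta2 MO from coMO in log2(signal + 16) for the 18 member probe sets past the filter under 5 scalings between arrays. The poly-A spikes move each point to the right, so that pvalb5 passes 0 (from -0.65 to 0.29) while ckmt2a stays at -3.06 and ttn.2 reaches 2.52.

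Other muscle genes named in the deposited tables, of families the symbols above do not cover, differed in both directions as well. Of a list of 149 symbols 20 genes were named in the deposited tables, with 23 probe sets, all tested. Against coMO 14 were higher and 9 lower, at a median log2 of 0.92, beside 29.5% and 26.8% of all probe sets and a median of 0.05. They too were named through a 2-fold difference on these arrays. The gene xirp1, which would not have passed the filter on the control arrays alone, codes for an actin binding protein of muscle attachment sites and gave 845 and 811 in ERbeta2 MO, 149 and 127 in coMO and 125 and 160.0 in uninjected embryos (log2 2.46, SE 0.19). The Z disc filamin gene flncb gave 1572 and 1566, 328 and 389, and 402 and 340.4 in the same order (log2 2.09, SE 0.16). The myosin chaperone gene unc45b gave 1368 and 1273, 458 and 311, and 341 and 274 (log2 1.76, SE 0.18). Desmin, desma, the intermediate filament of muscle, and the slow myosin heavy chain gene smyhc1 were picked after their values were seen, and stood at 1.63 (SE 0.13) and 0.73 (SE 0.13).

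Of the 9 lower probe sets that of myosin binding protein H, mybpha, showed the largest difference, with signals of 32.6 and 31.2 in ERbeta2 MO, 373 and 354 in coMO and 347 and 359 in uninjected embryos (log2 -2.98, SE 0.20). Muscle glycogen phosphorylase, pygmb, which frees glucose units from glycogen, was lower on both of its probe sets (-1.90, SE 0.14, and -1.86, SE 0.13). Muscle phosphofructokinase, pfkma, of glycolysis, was at -1.89 (SE 0.15), myoglobin, mb, at -1.83 (SE 0.14) and lactate dehydrogenase, ldha, at -1.68 (SE 0.14). The chaperone gene hsp90aa1.2, chosen after its values were seen, was lower on both of its probe sets (-1.58, SE 0.14, and -0.98, SE 0.13). With the poly-A spikes these stood at -0.65 and -0.05. All 8 genes named by size kept their sign under the 5 scalings, though for the higher ones only quantile normalization could have changed it. With the poly-A spikes 14 were higher and 7 lower, beside the 69.8% and 4.17% of all probe sets, and sypl2a alone changed sign, from -0.78 to 0.16.

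**Figure D5:**
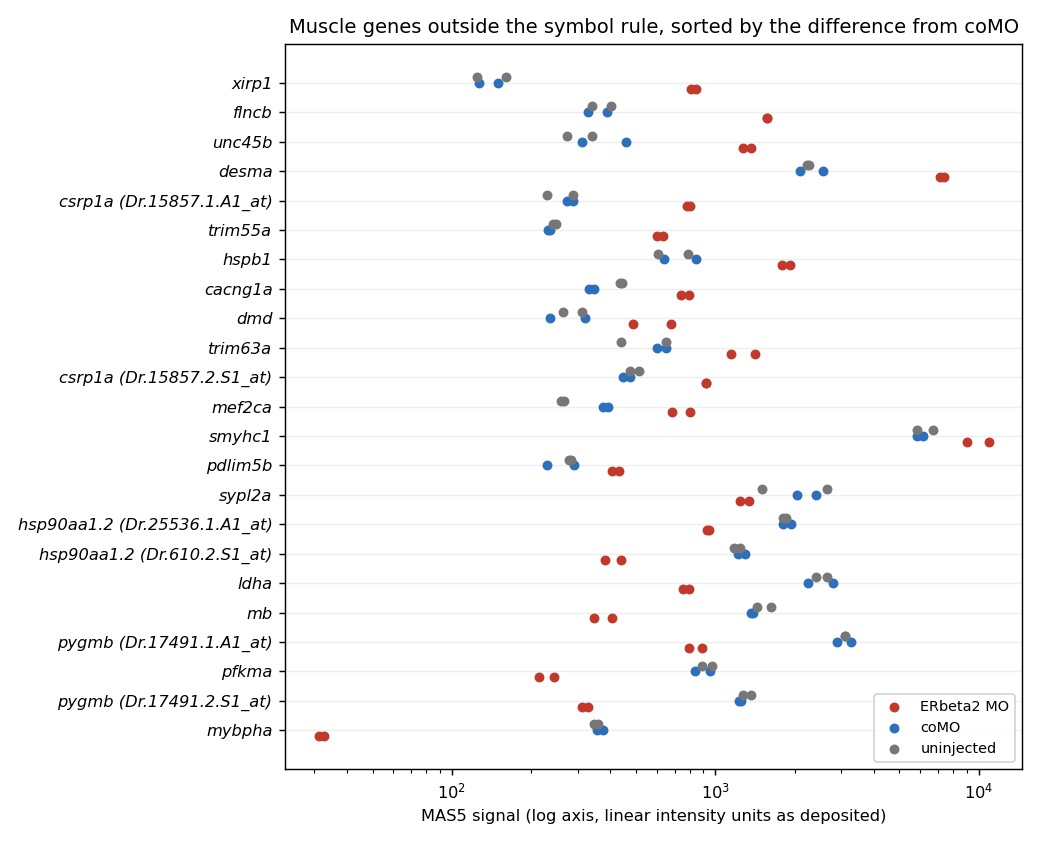
MAS5 signal (log axis) of the 23 probe sets of muscle genes outside the symbol families on the 6 arrays, 1 point per array, sorted by their difference from coMO. In 14 rows both ERbeta2 MO arrays lie above all control arrays, from xirp1 at 845 and 811 downwards, and in the other 9 below them, to mybpha at 32.6 and 31.2.

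Markers of other cell types that the deposited tables name differed between the groups as well. They too were named through a 2-fold difference on these arrays. Markers that did not reach it are absent, so nothing is read from their counts. Against coMO 29.5% of all probe sets tested were higher and 26.8% lower. Of 9 probe sets of red blood cell genes 7 were tested and all were higher against coMO. The summed signal of the 9 was 89758 to 89974 in ERbeta2 MO, 43142 to 44925 in coMO and 42042 to 50015 in uninjected embryos. Of 8 for neurons 7 were tested, with 1 higher and 6 lower and a summed signal of 9568 to 9668, 17766 to 18561 and 17948 to 18753 in the same order. Of 11 for cartilage and connective tissue 10 were tested, with 2 higher and 8 lower and a summed signal of 30861 to 32329, 80443 to 82389 and 78931 to 82551. All sums in this paragraph are of signals as deposited and were not rescaled on the poly-A spikes, which would raise those of ERbeta2 MO. No marker had a signal of 0, the lowest being 14.4. The summed signal of the 20 member probe sets, of which not all are particular to muscle, was 26760 to 28249, 30054 to 31086 and 31634 to 32647. Without ttn.2, which made up most of it in ERbeta2 MO, the sum over the other 19 was 10233 to 10285, 24416 to 25289 and 25014 to 26397. The part of these cell types in the muscle differences was not tested.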

How the data were processed

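Signals of 6 Affymetrix arrays were analysed as the deposited probe set intensity values, made by the authors with MAS5 per the submitters' processing notes, with version and settings not given in the sources used here. Each array's mean after trimming 2% at each end was 500, so the deposited values are scaled per array. The authors' fold, a linear ratio, came from 3 deposited tables, per the file headers. Current symbols were taken by GeneID from RefSeq's table of assembly GRCz12tu for all 20 member probe sets.

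Detection calls were not used here. Left out were 115 control probe sets and, of the others, the dimmest 40% by mean log2(signal + 16), so that 9302 were tested, 18 of 20 members among them. limma 3.58.1 in R 4.3.3 (lmFit, eBayes with a trend) was fitted to all 6 arrays with 3 residual degrees of freedom, and p-values were adjusted by Benjamini-Hochberg over all 9302. With 6 arrays the precision is low, and groups of 2 allow no test of single outlying arrays. The fit was also run on simulated data with changes planted in 200 probe sets. Far more probe sets passed against coMO in the real data, so nothing is concluded from that run. Lists, members and tests were chosen with earlier results of these data known. Named were all members, and by size the 8 largest differences from coMO among other muscle genes. For the contrasts that chose the members no p is printed as a test of them. Lists of red blood cell, neuron and cartilage markers were set beside them. Alternatives were another offset, filter, scaling, group choice, prior spread, a replicate block and leaving out each array.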

Additional observations from a re-analysis of the deposited data

How the results depend on the processing

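Settings tried for the 18 tested members were offsets of 1 and 64, no filter or the lowest 60% left out, 4 scalings, fits of only the 2 groups compared, no trend, a replicate block and leaving out each array. Single members were followed in both ERbeta2 MO comparisons, and between coMO and uninjected embryos for the 5 with the largest differences. Of 683 such values, 668 kept their direction and side of the threshold. The filters, the fits of only the 2 groups, no trend and the block leave the log2 itself unchanged. So does leaving out an array of the group not compared, and direction could not change in any of these. Another 13 kept their direction but no longer passed, 11 of them under the hybridization control or poly-A scaling and 2 for tpm2 without 1 array. The remaining 2 changed sign with the poly-A spikes, pvalb5 against coMO to 0.29 and tnni2a.2 between coMO and uninjected embryos, which was never past the threshold, to -0.01. Over all 18 members the sign between the control groups differed for 7 with the poly-A spikes, 4 with the hybridization controls, 2 with median centring and 1 to 5 without 1 control array, with 0 past the threshold in each. With the lowest 60% left out, fewer members were tested (14) and 3 were higher against coMO and 3 against uninjected embryos. Of all probe sets 34.7% and 35.4% were then higher. With the poly-A spikes 6 were lower against coMO, beside 4.17% of all probe sets. Leaving out 1 array gave a median log2 over the members of -1.23 to -1.04 against coMO, beside 0.02 to 0.06 over all probe sets. Against uninjected embryos it was -1.27 to -1.14, beside 0.03 to 0.06, and between the control groups -0.08 to 0.04. When either ERbeta2 MO array was left out, nppa fell below the filter and 17 members were tested. A lone array was then assumed to vary like the other groups.

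Arrays with the same replicate number deviated together only weakly (r = 0.0134 to 0.118), so the numbers were not taken to pair the samples. With the replicate block the member counts were 5 higher and 13 lower in both ERbeta2 MO comparisons and 0 between the controls, as without it. Of all probe sets 30.5% were then higher and 27.6% lower against coMO, and 31.6% and 27.5% against uninjected embryos. Over all probe sets the block took the calls between coMO and uninjected embryos from 27 higher and 20 lower to 51 higher and 41 lower. The signals of myo3a and myod1, near the offset or below the filter, limit what can be said of them.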
